A study of Mus musculus with 6 samples.

Results

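The 10 genes described here encode chaperones and folding enzymes of the endoplasmic reticulum (ER): Hspa5, Hsp90b1, Dnajb9, Hyou1, Sdf2l1, Calr, Canx, Pdia3, Pdia4 and Pdia6. They were taken from a list of names, and are 10 of the 54146 genes in the count files and 10 of the 13120 that passed a filter on low counts. Total RNA depleted of ribosomal RNA was sequenced, with strand kept, from NIH/3T3 cells, an immortalised fibroblast line from embryos of Swiss albino mice, grown in DMEM with 10% foetal bovine serum. The groups were Ki-67 knockout clone 2 and Ki-67 knockout clone 1, both of genotype Mki67-/-, and wild-type (WT) cells, with 2 libraries each. The study set the knockout clones beside WT cells. Each clone is 1 line, and neither the way the clones were made nor the edited part of Mki67 is stated by the labels. Since no label says that the libraries of a group are separate cultures, p-values reflect the spread of these libraries alone, which may be technical.

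The shallowest library was WT replicate 1, with 3873249 gene counts, and the deepest was clone 1 replicate 1, with 19678782. Both WT libraries were shallower than every knockout library, WT replicate 2 having 11377172 gene counts and the shallowest knockout library 15087148. Depth thus ran with genotype. The protocol text names 4T1, a mouse mammary tumour line, while titles and sources name NIH/3T3 fibroblasts. In CPM (counts scaled to 1 total of gene counts for all libraries), 6 fibroblast markers (Col1a1, Col1a2, Vim, Pdgfrb, Thy1 and Fn1) summed to 6902 to 6972 in clone 2, 6242 to 6564 in clone 1 and 7469 to 8933 in WT. The 6 epithelial markers summed to 1.2 to 1.26 CPM in clone 2, 1.55 to 2.03 CPM in clone 1 and 1.03 to 1.23 CPM in WT, and 2 of them had no count in any library. Mki67 had 4.41 and 7.82 CPM in clone 2, 4.27 and 4.71 CPM in clone 1, against 46.7 and 53.8 CPM in WT, a log2 fold change of −3.35 ± 0.18 for the mean of both clones (standard error, SE). All 4 knockout libraries were far below both WT libraries, in the direction of their labels. The summed level of 4 leukocyte markers was 31.7 to 35.8 CPM in clone 2, 34.0 to 36.1 CPM in clone 1 and 19.0 to 23.8 CPM in WT, with 1 of the 4 at 0 throughout. That of 4 muscle markers was 170 to 180 CPM in clone 2, 1061 to 1100 CPM in clone 1 and 807 to 1001 CPM in WT, and that of 3 endothelial markers 1.66 to 1.77 CPM in clone 2, 1.29 to 1.63 CPM in clone 1 and 3.87 to 4.40 CPM in WT, with 1 gene of each list at 0 throughout. Their part in the results below was not tested.

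The ER is where secreted and membrane proteins enter the secretory pathway and fold. Hspa5 (BiP) and its co-chaperones bind unfolded chains, Hsp90b1 (GRP94) finishes a smaller set of clients, calreticulin and calnexin hold glycoproteins through their sugars, and protein disulfide isomerases make and rearrange disulfide bonds. When unfolded protein builds up, the sensors IRE1, ATF6 and PERK start the unfolded protein response, in which XBP1 and ATF6 raise transcription of chaperone genes, while PERK slows translation and favours ATF4 and CHOP. Fibroblasts secrete much collagen and fibronectin, which are clients of this machinery.

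Many ER chaperone promoters hold the ER stress response element, in which a CCAAT box bound by NF-Y is followed at a fixed distance by CCACG, the part bound by ATF6 or XBP1. It was searched as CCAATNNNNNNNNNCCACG on both strands of the window from 250 bases before to 50 after each RefSeq gene start (GRCm38.p6), which was at hand for 9 of the 10 genes. The window of 5 of those 9 held it (Hspa5, Calr, Hsp90b1, Canx and Pdia6), against 0.119% of all 32851 windows. The element is known from promoters of this kind, so this share is a description and not a test. The matches are shown because they are the sequence that these genes share. They are lined up below from CCAAT to CCACG, with the letters of the motif in capitals, and their strand is the one on which they read in this direction.
Hspa5 (chr2:34772025-34772043, plus strand): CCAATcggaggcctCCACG
Calr (chr8:84847075-84847093, plus strand): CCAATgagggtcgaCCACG
Hsp90b1 (chr10:86705638-86705656, minus strand): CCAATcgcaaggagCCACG
Hsp90b1 (chr10:86705533-86705551, plus strand): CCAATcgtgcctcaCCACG
Canx (chr11:50325800-50325818, minus strand): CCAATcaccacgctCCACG
Pdia6 (chr12:17266491-17266509, plus strand): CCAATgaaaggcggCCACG

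Counted from the RefSeq starts, the match in Hspa5 began 65 bases before the gene's start, that in Pdia6 98, that in Canx 145 and that in Calr 162, the last on the strand opposite to the gene. Hsp90b1 held 2 matches, 212 bases before its start and, on the opposite strand, 107 before it. The GENCODE model of Hspa5, whose coordinates are given with its levels, begins earlier than the RefSeq start, so this match lies inside that model. A shortened form, CCAATNNNNNNNNNCCA, which every full match also contains, was in 7 of the 9 windows, with Pdia3 and Pdia4 added, against 1.09% of all windows. Neither form was found for Dnajb9 or Sdf2l1, and a related element (ATTGG, any base and then CCACG) was in none of the 9 windows (0.0365% of all windows). TGACGTG, a core bound by ATF6 and XBP1 in other promoters, was found in Hspa5 alone among the 9 (2.01% of all windows). A plain CCAAT, which every form above except TGACGTG contains on one strand, was in 9 of 9 windows and in 37.4% of all windows. These matches describe letters and do not show binding in these cells.

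The 250 bases before the start are printed below for 4 genes that hold the full element and that rose in the knockout mean, and for Pdia4, which fell and holds the shortened form. These were picked with their changes known. Not printed are Calr, which holds the full element and was not called (log2 fold change 0.27), and Pdia3. Pdia3 holds the shortened form alone, as Pdia4 does, but rose (0.46). Whether the form of the element goes with direction was not tested. Capitals mark the letters of full or shortened matches on either strand, so that a match on the opposite strand reads CGTGG or TGG, then 9 bases, then ATTGG.
Hspa5 (chr2:34771840-34772089, plus strand): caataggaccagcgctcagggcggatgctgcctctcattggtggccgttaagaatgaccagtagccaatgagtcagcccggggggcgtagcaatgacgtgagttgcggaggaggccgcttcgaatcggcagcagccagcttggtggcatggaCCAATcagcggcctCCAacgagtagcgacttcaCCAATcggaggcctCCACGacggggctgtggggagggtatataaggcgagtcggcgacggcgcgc
Hsp90b1 (chr10:86705445-86705694, minus strand): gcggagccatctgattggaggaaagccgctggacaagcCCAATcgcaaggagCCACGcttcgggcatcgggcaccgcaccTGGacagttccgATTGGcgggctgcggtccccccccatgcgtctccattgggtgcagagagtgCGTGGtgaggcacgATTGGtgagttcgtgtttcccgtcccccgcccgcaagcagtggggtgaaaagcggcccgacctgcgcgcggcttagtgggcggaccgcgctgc
Canx (chr11:50325674-50325923, minus strand): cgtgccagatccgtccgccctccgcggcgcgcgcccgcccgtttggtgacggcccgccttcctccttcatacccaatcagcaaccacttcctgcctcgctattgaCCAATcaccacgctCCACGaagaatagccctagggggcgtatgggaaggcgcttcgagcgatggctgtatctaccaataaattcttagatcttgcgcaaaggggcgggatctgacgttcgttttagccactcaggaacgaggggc
Pdia6 (chr12:17266339-17266588, plus strand): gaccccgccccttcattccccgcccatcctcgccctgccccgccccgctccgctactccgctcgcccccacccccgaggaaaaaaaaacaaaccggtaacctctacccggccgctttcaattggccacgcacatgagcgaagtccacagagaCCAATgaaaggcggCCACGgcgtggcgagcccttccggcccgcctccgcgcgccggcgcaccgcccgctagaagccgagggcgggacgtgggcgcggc
Pdia4 (chr6:47813513-47813762, minus strand): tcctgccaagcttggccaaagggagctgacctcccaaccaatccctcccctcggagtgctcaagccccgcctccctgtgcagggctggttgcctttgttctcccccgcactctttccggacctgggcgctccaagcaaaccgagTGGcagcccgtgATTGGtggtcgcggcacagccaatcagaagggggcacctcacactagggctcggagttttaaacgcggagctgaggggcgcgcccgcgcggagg

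In the mean of both knockout clones, 5 of the 10 genes rose relative to WT (Hspa5, Hsp90b1, Canx, Pdia3 and Pdia6) and 1 fell (Pdia4). Calr, Dnajb9, Hyou1 and Sdf2l1 did not pass the test. A change was called below 0.05 on the p adjusted by Benjamini-Hochberg over all 13120 genes in edgeR's quasi-likelihood test, the source of every adjusted p below unless another tool is named. Of all genes tested, 34.8% were called in this comparison, 16.6% higher and 18.2% lower, so 5 of 10 higher and 1 of 10 lower stand beside a wide change of the transcriptome. The median log2 fold change of the 10 genes was 0.31 and that of all genes 0.00. The 10 genes together took 0.437% and 0.398% of gene counts in clone 2 and 0.425% and 0.467% in clone 1, against 0.307% and 0.334% in WT, and every knockout library was above both WT libraries. In bulk RNA, more cells with these transcripts and more transcript per cell cannot be told apart.

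Of the 37 genes whose window held the full element, 15 were tested, and 6 rose and 2 fell in the knockout mean. Of all genes tested, 16.6% were called higher and 18.2% lower. The 15 were the 5 chaperone genes and 10 others. Of those 10, 2 rose (Hnrnpa3 and Tdrd9) and 2 fell (Xlr3a and Xlr3c), names given after their values were seen. The median log2 fold change of the 10 others was 0.10. Xlr3a and Xlr3c are members of a family of close copies, so their counts are uncertain. The genes named here were also low, with a mean log2 CPM of 0.37 for Tdrd9, 1.8 for Hnrnpa3, 0.71 for Xlr3a and 0.83 for Xlr3c.

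**Figure D1:**
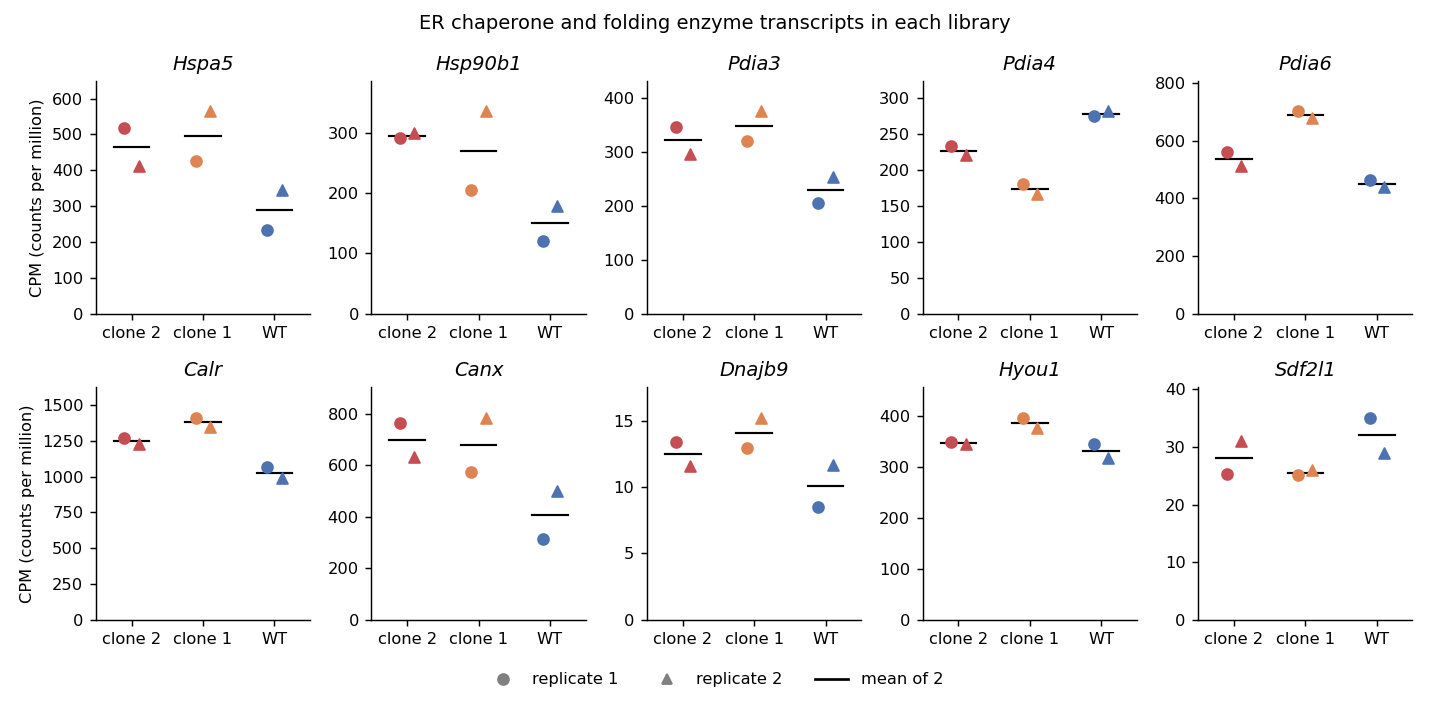
CPM of each of the 10 genes in each library, with axes from 0; circles are replicate 1, triangles replicate 2 and lines the mean of 2. For Pdia4 all 4 knockout libraries lie below both WT libraries (166 to 232.5 against 273.9 and 281 CPM), while for Hspa5, Hsp90b1, Pdia3, Pdia6, Calr and Canx all 4 lie above.

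Hspa5 is the HSP70 chaperone of the ER lumen and also binds the stress sensors (ENSMUSG00000026864, chr2:34771970-34777547, plus strand, GRCm38). It had 517.3 and 410.7 CPM in clone 2, 424.9 and 564.3 CPM in clone 1, against 232.4 and 344.2 CPM in WT. Both clones lay above WT with no overlap, and the replicates of each group stood well apart. In the knockout mean Hspa5 rose by 0.65 ± 0.16 on the log2 scale (SE, 95% interval 0.30 to 1.00, adjusted p = 0.00762), by 0.60 ± 0.18 in clone 2 (adjusted p = 0.0267) and by 0.69 ± 0.18 in clone 1 (adjusted p = 0.0113). The mean was 0.41 without WT replicate 1 and 0.95 without WT replicate 2, and was called in both. The clone 2 call ended at 0.37 (adjusted p = 0.0708) without WT replicate 1 and at 0.42 (adjusted p = 0.257) without clone 2 replicate 1, and the clone 1 call without clone 1 replicate 2 (0.49, adjusted p = 0.138).

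Hsp90b1 encodes GRP94, the HSP90 of the ER, which folds integrins and Toll-like receptors (ENSMUSG00000020048, chr10:86690209-86705509, minus strand). Its levels were 290.6 and 299.1 CPM in clone 2, 205.6 and 335.4 CPM in clone 1, against 121.3 and 177.99 CPM in WT. The clone 2 libraries were alike, whereas clone 1 replicate 1 was closer to WT than to its own replicate 2. This was the largest rise of the 10 genes in this fit, 0.82 ± 0.18 in the knockout mean (95% interval 0.44 to 1.21, adjusted p = 0.00313), with 0.89 ± 0.20 in clone 2 (adjusted p = 0.00554) and 0.76 ± 0.20 in clone 1 (adjusted p = 0.011). Genes overlap it on both strands, and counts that ignore strand came to 84.7% of the strand-specific ones. The mean rise was also called with such counts, while the clone 1 call ended without clone 1 replicate 2 (0.38, adjusted p = 0.215).

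3 genes encode partners of Hspa5. Dnajb9 (ERdj4), a J-domain co-chaperone that brings Hspa5 to the sensor IRE1, was the least abundant, with 13.4 and 11.6 CPM in clone 2, 12.9 and 15.2 CPM in clone 1, against 8.52 and 11.7 CPM in WT. The lower clone 2 library lay just under the higher WT library, and the difference was 0.26 ± 0.18 (95% interval −0.13 to 0.64, adjusted p = 0.294). It was 0.11 without WT replicate 1 and 0.54 without WT replicate 2, and was called in neither. Hyou1, the HSP110-type exchange factor that releases nucleotide from Hspa5, had 350.1 and 345.5 CPM in clone 2, 397.5 and 376.0 CPM in clone 1, against 345.7 and 317.0 CPM in WT. Clone 2 replicate 2 lay just below WT replicate 1, so the groups overlapped, and the difference was 0.07 ± 0.11 (95% interval −0.17 to 0.30, adjusted p = 0.677). Sdf2l1, which keeps Hspa5 and its J-domain partner Dnajb11 together on clients, had 25.3 and 31.0 CPM in clone 2, 25.1 and 26.01 CPM in clone 1, against 35.1 and 28.9 CPM in WT. Its difference was −0.31 ± 0.15 (95% interval −0.63 to 0.00, adjusted p = 0.112), with clone 2 replicate 2 between the WT libraries. That difference passed the test without WT replicate 2 (−0.48, adjusted p = 0.0368) and with all libraries thinned to the shallowest (−0.50, adjusted p = 0.0359).

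Canx and Calr are the lectin chaperones of the calnexin cycle, the first anchored in the ER membrane and the other free in the lumen, where it also stores calcium. Canx (ENSMUSG00000020368, chr11:50293961-50325673, minus strand) had 763.9 and 629.7 CPM in clone 2, 575.1 and 784.6 CPM in clone 1, against 312.4 and 497.8 CPM in WT. All knockout libraries were above WT, clone 1 replicate 1 by the least. Canx rose by 0.68 ± 0.18 in the knockout mean (95% interval 0.31 to 1.06, adjusted p = 0.0085), by 0.70 ± 0.20 in clone 2 (adjusted p = 0.018) and by 0.66 ± 0.20 in clone 1 (adjusted p = 0.02). Without WT replicate 1 the mean was 0.40, and without WT replicate 2 it was 1.05, called in both. The clone 2 call ended without clone 2 replicate 1 (0.55, adjusted p = 0.162), and the clone 1 call at 0.38 (adjusted p = 0.0513) without WT replicate 1 and at 0.44 (adjusted p = 0.216) without clone 1 replicate 2. Calr (ENSMUSG00000003814, chr8:84841850-84846934, minus strand) was the most abundant of the 10 genes, with 1269 and 1226 CPM in clone 2, 1412 and 1346 CPM in clone 1, against 1069 and 986.9 CPM in WT. Its groups did not overlap either, but the difference of 0.27 ± 0.12 was not called (95% interval 0.01 to 0.53, adjusted p = 0.0981). It was called when libraries were scaled to their totals alone (0.35, adjusted p = 0.0228) and with no filter on low counts (0.32, adjusted p = 0.0113). In clone 1 it stood at 0.34 (adjusted p = 0.072) and was called with library totals (0.42), with no filter (0.41), by DESeq2 (0.34) and without WT replicate 1 (0.42).

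The disulfide isomerases moved in both directions. Pdia3 (ERp57), which works on glycoproteins held by calnexin and calreticulin (ENSMUSG00000027248, chr2:121413775-121438687, plus strand), had 346.4 and 296.3 CPM in clone 2, 319.3 and 375.1 CPM in clone 1, against 205.8 and 253.4 CPM in WT. No knockout library overlapped WT. Pdia3 rose by 0.46 ± 0.13 in the knockout mean (95% interval 0.19 to 0.73, adjusted p = 0.0121), by 0.40 ± 0.14 in clone 2 (adjusted p = 0.0497) and by 0.51 ± 0.14 in clone 1 (adjusted p = 0.0139). The mean came to 0.33 (adjusted p = 0.0626) with WT replicate 1 left out, to 0.40 (adjusted p = 0.0532) with clone 1 replicate 2 left out and to 0.40 (adjusted p = 0.0671) with clone 2 replicate 1 left out, and was then not called. The clone 2 value ranged from 0.28 to 0.55 over 15 alternatives and was called under 5 of them, and the clone 1 call ended without clone 1 replicate 2 (0.40, adjusted p = 0.149).

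Pdia6 (P5), an isomerase that associates with Hspa5 and attenuates IRE1 (ENSMUSG00000020571, chr12:17266545-17284770, plus strand), had 560.3 and 513.4 CPM in clone 2, 701.1 and 676.8 CPM in clone 1, against 462.7 and 438.3 CPM in WT. The 3 groups were separate, with clone 2 between clone 1 and WT. It rose by 0.35 ± 0.11 in the knockout mean (95% interval 0.11 to 0.60, adjusted p = 0.0283) and by 0.53 ± 0.13 in clone 1 (adjusted p = 0.00704), while clone 2 stood at 0.17 ± 0.13 (adjusted p = 0.359). Leaving out any library other than WT replicate 1 ended the call of the mean (0.30 to 0.37, adjusted p = 0.0699 to 0.151), as did treating both clones as 1 group (0.36, adjusted p = 0.0946). The clone 1 call ended without clone 1 replicate 1 (0.49, adjusted p = 0.0566).

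Pdia4 (ERp72), a luminal isomerase of several thioredoxin-like domains (ENSMUSG00000025823, chr6:47796141-47813430, minus strand), went the other way. It had 232.5 and 219.9 CPM in clone 2, 180.7 and 166.0 CPM in clone 1, against 273.9 and 281.0 CPM in WT. Replicates agreed closely within each group, and the 3 groups did not overlap. In the knockout mean Pdia4 fell by 0.57 on the log2 scale (SE 0.11, 95% interval −0.79 to −0.34, adjusted p = 0.00108), by 0.38 in clone 2 (SE 0.12, adjusted p = 0.0364) and by 0.76 in clone 1 (SE 0.12, adjusted p = 0.000508). Without any 1 library the mean ranged from −0.61 to −0.54 and stayed called. The clone 2 call ended without WT replicate 2 and without either library of clone 1 or of clone 2 (−0.42 to −0.35, adjusted p = 0.0535 to 0.223), and also with library totals (−0.30, adjusted p = 0.0652) or with no filter (−0.34, adjusted p = 0.0563).

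**Figure D2:**
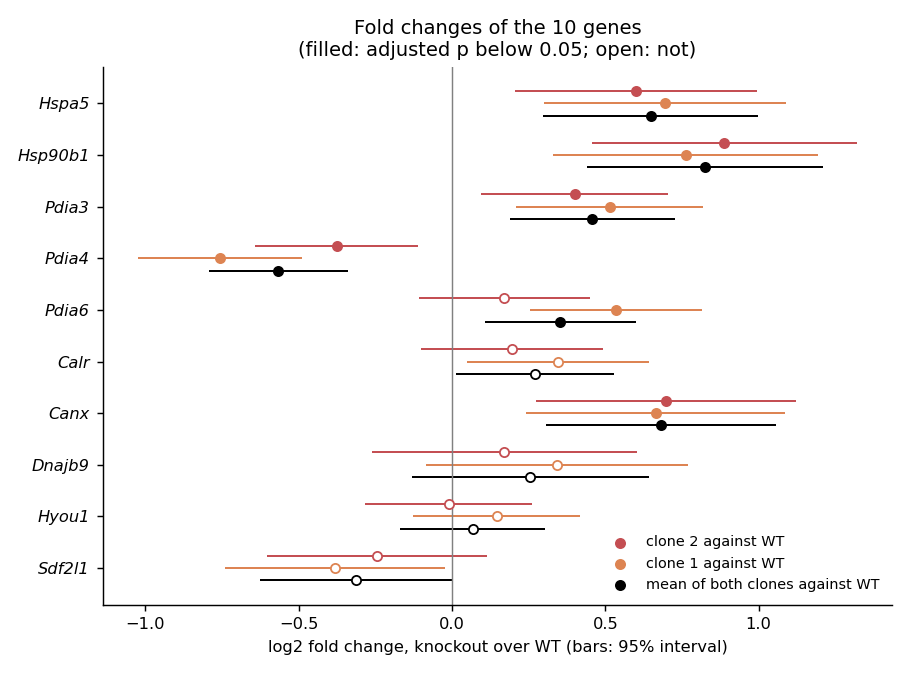
Log2 fold changes over WT of the 10 genes, with 95% intervals, for clone 2, clone 1 and the mean of both clones; filled points passed an adjusted p below 0.05. Hspa5, Hsp90b1, Pdia3 and Canx are filled to the right of 0 in both clones and Pdia4 to the left in both, while Pdia6 is filled in clone 1 and in the mean, and Calr, Dnajb9, Hyou1 and Sdf2l1 are open throughout.

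Counted by clone, 4 of the 10 genes rose and 1 fell in clone 2, where 27.4% of all genes were called, 12.9% higher and 14.5% lower. In clone 1, 5 rose and 1 fell, where 31.7% of all genes were called, 15.2% higher and 16.5% lower. The median log2 fold change of the 10 genes was 0.18 in clone 2 and 0.43 in clone 1, with 0.00 and 0.01 over all genes. In both clones 4 genes rose (9.57% of all genes did so) and 1 fell (11.2% of all genes). Both comparisons use the same WT libraries, so they are not independent. In CPM, 6 of the 10 genes had every knockout library above both WT libraries, as did 30.2% of all genes, and 1 had every knockout library below, as did 20.5%. The counts rest on few libraries: without clone 1 replicate 2, Pdia6 was the sole gene that rose in clone 1, and without clone 2 replicate 1, Hsp90b1 was the sole gene that rose in clone 2. Without either of those libraries 3 genes rose in the mean of both clones, Hspa5, Hsp90b1 and Canx.

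Set against each other, the clones differed in none of the 10 genes by edgeR's adjusted p, where 3.54% of all genes were called (1.18% higher in clone 2 and 2.36% lower), and DESeq2 also called 0. At an unadjusted p below 0.05 there were 2, Pdia4 and Pdia6. Pdia4 was higher in clone 2 than in clone 1 by 0.38 ± 0.12 (95% interval 0.12 to 0.64, adjusted p = 0.124), and Pdia6 stood at −0.36 ± 0.13 (95% interval −0.64 to −0.09, adjusted p = 0.165). Pdia4 passed the test with offsets for GC content and length (0.42, adjusted p = 0.0412), without WT replicate 1 (0.38, adjusted p = 0.0309) and without WT replicate 2 (0.38, adjusted p = 0.0286). Pdia6 passed it without WT replicate 1 (−0.36, adjusted p = 0.048), without WT replicate 2 (−0.36, adjusted p = 0.0461) and with no filter (−0.39, adjusted p = 0.0446). For the core chaperones the differences were small beside their intervals: −0.09 for Hspa5 (−0.48 to 0.30), 0.13 for Hsp90b1 (−0.30 to 0.55) and 0.03 for Canx (−0.38 to 0.45). These intervals do not show that the clones are alike.

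Replicates of the same group differed widely in 6 of the 10 genes. On the log2 scale, replicate 2 minus replicate 1 of Hspa5 was −0.33 in clone 2, 0.41 in clone 1 and 0.57 in WT. For Canx it was −0.28 in clone 2, 0.45 in clone 1 and 0.67 in WT, and for Hsp90b1 it was 0.04 in clone 2, 0.71 in clone 1 and 0.55 in WT. Pdia3 and Dnajb9 were also negative in clone 2 and positive in clone 1 and WT, whereas Sdf2l1 was at 0.30 in clone 2, 0.05 in clone 1 and −0.28 in WT. Pdia4, Pdia6, Calr and Hyou1 differed by no more than Pdia6 in clone 2 (−0.13) in any group. Clone 2 replicate 1, clone 1 replicate 2 and WT replicate 2 were the higher libraries of the 4 genes Hspa5, Canx, Pdia3 and Dnajb9.

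Of the genes with wide replicate differences, 5 are those with the lowest GC content of the longest annotated transcript, 40.6% in Dnajb9, 42.1% in Hsp90b1, 42.2% in Canx, 45.6% in Hspa5 and 46.9% in Pdia3, against 47.6% in Pdia4, 48.9% in Pdia6, 50% in Calr, 52.3% in Hyou1 and 56.7% in Sdf2l1. Over all genes, log2 fold changes of the knockout mean had a median of 0.34 for genes under 45% GC, 0.06 from 45 to 50%, −0.11 from 50 to 55% and −0.21 above. Of genes under 45% GC, 33.0% were called higher and 6.95% lower, and of genes over 55% GC, 6.65% higher and 30.9% lower. Replicate differences ran along the same axis. The median of replicate 2 minus replicate 1 under 45% GC was −0.05 in clone 2, 0.20 in clone 1 and 0.25 in WT, and over 55% GC it was 0.08 in clone 2, −0.10 in clone 1 and −0.09 in WT, so clone 2 ran the opposite way.

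Offsets fitted to each library on GC content and length were therefore added to the model. With them the same 5 genes were called higher and Pdia4 lower in the knockout mean, where 16.8% of all genes were called higher and 17.3% lower. Hsp90b1 came to 0.49 (adjusted p = 0.0138), Canx to 0.38 (adjusted p = 0.0342) and Hspa5 to 0.51 (adjusted p = 0.00761), all smaller than before. Pdia3 came to 0.35 (adjusted p = 0.0217), Pdia6 to 0.34 (adjusted p = 0.0266) and Pdia4 to −0.63 (adjusted p = 0.000252). Dnajb9, the gene of lowest GC content, moved to −0.14 (adjusted p = 0.508). By clone, Pdia3 (0.30, adjusted p = 0.0775) and Canx (0.38, adjusted p = 0.0694) were then not called in clone 2, nor Canx in clone 1 (0.38, adjusted p = 0.0586).

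**Figure D3:**
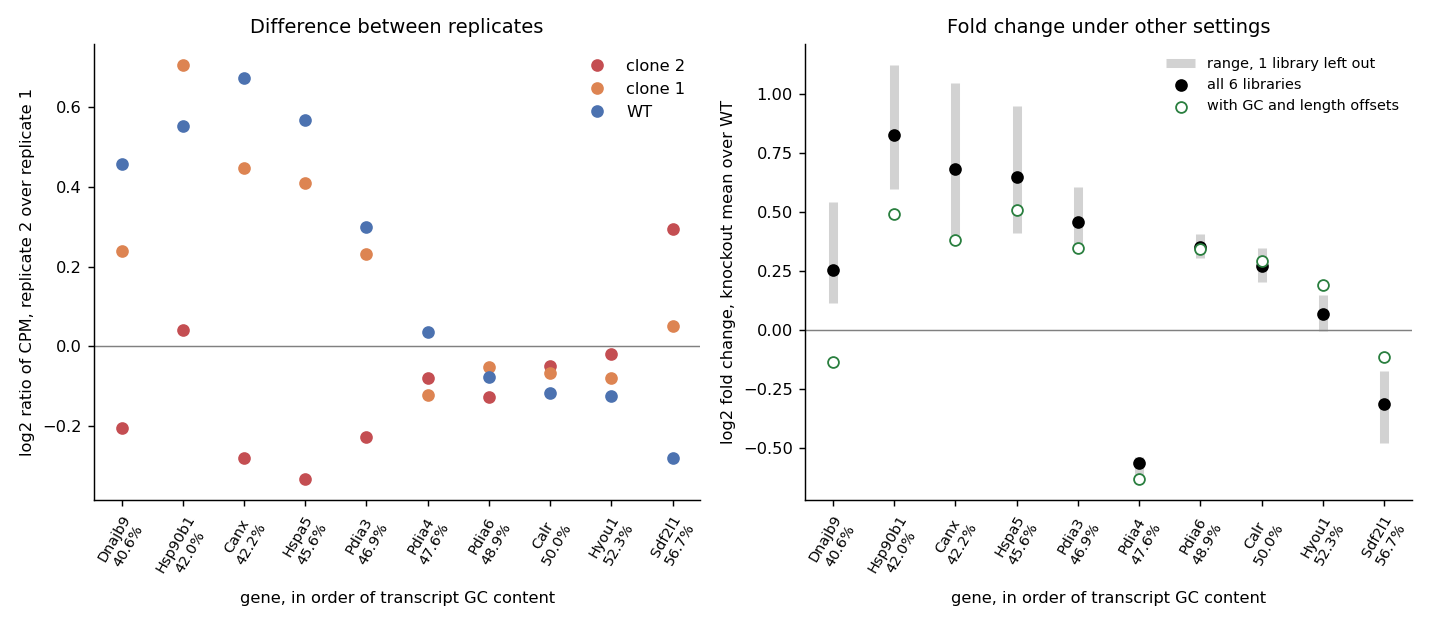
Left, log2 ratio of CPM between the replicates of each group (replicate 2 over replicate 1) for the 10 genes in order of transcript GC content; right, their log2 fold change of the knockout mean over WT with all 6 libraries (black), its range with 1 library left out (grey) and its value with GC and length offsets (green). Replicates differ widely from Dnajb9 to Pdia3 and little from Pdia4 to Hyou1, and Hsp90b1 is at 0.49 with the offsets against 0.82 without, and Pdia6 at 0.34 against 0.35.

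Levels of different genes were compared as CPM per kilobase of annotated exon. Calr was first in every group, with 433 in clone 2, 478.8 in clone 1 and 357 in WT, and Dnajb9 was last, with 4.90 in clone 2, 5.52 in clone 1 and 3.96 in WT. Sdf2l1 was next to last in every group, at 25.4 in clone 2, 23.1 in clone 1 and 28.9 in WT. Pdia4 took a different place by group: it stood at 94.3 in clone 2, 72.3 in clone 1 and 115.6 in WT, below Canx, Hspa5 and Pdia3 in both clones and above them in WT. In clone 2 the order after Calr was Canx and Pdia6, whose ranges overlapped, then Hspa5, Pdia3 and Pdia4, of which neighbours overlapped, then Hsp90b1 and Hyou1, which were apart. In clone 1 it was Pdia6, then Canx, Hspa5 and Pdia3 with overlapping neighbours, then Pdia4, Hsp90b1 and Hyou1 with overlapping neighbours. In WT it was Pdia6 and Pdia4, which overlapped, then Canx, Pdia3 and Hspa5, then Hyou1 and Hsp90b1, again with overlapping neighbours. With the longest transcript as the length, Pdia6 stood at 246.8 and Canx at 162.8 in clone 2, in the other order.

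**Figure D4:**
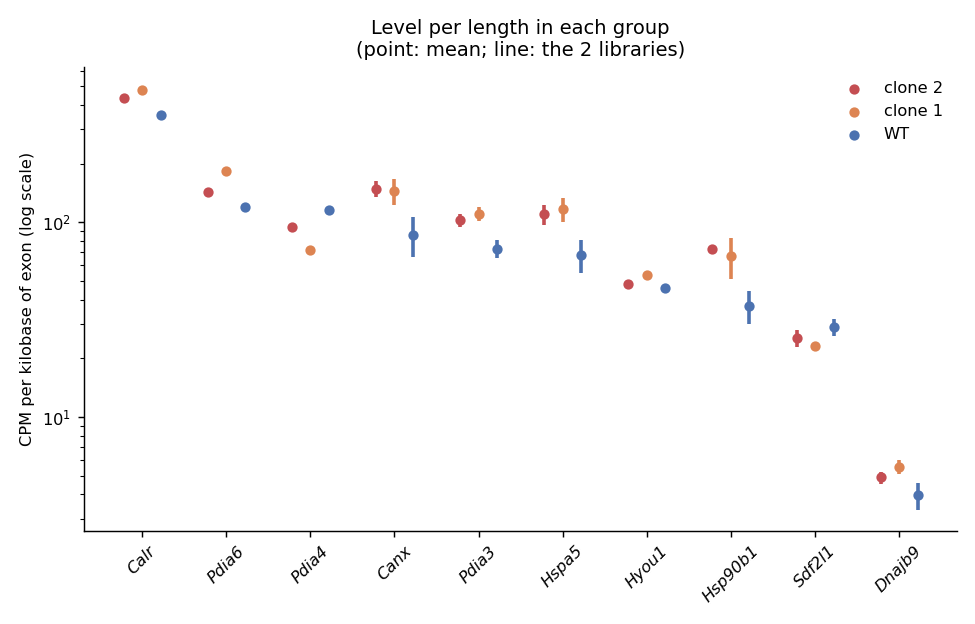
Level of each of the 10 genes in CPM per kilobase of annotated exon on a log axis, in order of their WT level; points are group means and lines span the 2 libraries. Calr lies highest and Dnajb9 lowest in every group, and Pdia4 and Sdf2l1 are the genes whose WT mean lies above both clone means.

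Of 10 sensors and transcription factors upstream of these genes, all tested, 1 rose and 2 fell in the knockout mean, with a median of 0.01. Of all genes tested, 16.6% were called higher and 18.2% lower in this mean. Those shares are the background for the counts of this and each following list. With GC and length offsets the shares were 16.8% higher and 17.3% lower, and this list again had 1 higher and 2 lower. Atf6, a membrane-bound activator of chaperone genes, had 63.8 and 54.5 CPM in clone 2, 63.8 and 77.7 CPM in clone 1, against 29.9 and 49.9 CPM in WT. It rose by 0.57 ± 0.17 (adjusted p = 0.0174), though not without WT replicate 1 (0.31, adjusted p = 0.112). Mbtps1, the site-1 protease that cuts ATF6, fell by 0.38 (SE 0.10, adjusted p = 0.013), a call lost at −0.36 (adjusted p = 0.054) without clone 1 replicate 2 and at −0.38 (adjusted p = 0.0595) without clone 2 replicate 1. Creb3, a related membrane-bound factor, fell by 0.46 (SE 0.12, adjusted p = 0.0107), a call lost without WT replicate 1 (−0.38, adjusted p = 0.0512).

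Xbp1 had 177.3 and 186.3 CPM in clone 2, 184.4 and 175.1 CPM in clone 1, against 176.6 and 162.2 CPM in WT, a difference of 0.02 ± 0.11 (adjusted p = 0.928). Gene counts do not tell its spliced, active form from the unspliced one. Ern1, the gene of IRE1, stood at 0.16 ± 0.13 (adjusted p = 0.396) and Eif2ak3, the gene of PERK, at 0.00 ± 0.15 (adjusted p = 1). Differences of Atf6b (−0.14 ± 0.13, adjusted p = 0.432), Creb3l1 (−0.02 ± 0.17, adjusted p = 0.942), Creb3l2 (0.18 ± 0.17, adjusted p = 0.436) and the site-2 protease gene Mbtps2 (0.46 ± 0.22, adjusted p = 0.12) did not pass the test. Mbtps2 passed it without clone 1 replicate 1 (0.62, adjusted p = 0.0194) and with no filter (0.51, adjusted p = 0.0436), and Creb3l2 without WT replicate 2 (0.59, adjusted p = 0.0355).

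Among the other HSP70 partners of the ER, 3 of 6 tested rose and 0 fell (0 also at an unadjusted p below 0.05 and by DESeq2), with a median of 0.32. Under GC and length offsets 2 were called higher and 0 lower. Dnajc3, also listed here, had no count in any library. Dnajc1, a membrane J-protein, had 32.3 and 31.5 CPM in clone 2, 25.1 and 35.6 CPM in clone 1, against 8.0 and 14.1 CPM in WT. The knockout libraries lay well above WT, and Dnajc1 rose by 1.32 ± 0.20 (adjusted p = 0.000265). Dnajc10, a J-protein that reduces disulfide bonds of proteins bound for degradation, rose by 0.79 ± 0.15 (adjusted p = 0.00111). Sec63, the J-protein of the translocation channel, rose by 0.49 ± 0.16 (adjusted p = 0.0303), a call that ended with GC and length offsets (0.23, adjusted p = 0.21), with thinned libraries (0.37, adjusted p = 0.187), and without any of clone 1 replicate 2, clone 2 replicate 1 and clone 2 replicate 2 (0.36 to 0.52, adjusted p = 0.0523 to 0.0854).

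Of 15 other disulfide isomerases and oxidases, 4 rose and 2 fell, with a median of 0.00. Under GC and length offsets 2 were called higher and 4 lower. Beside the genes named by size, the membrane-bound Tmx1 rose by 0.57, named after its value was seen. P4hb, the classic protein disulfide isomerase and a subunit of prolyl 4-hydroxylase, had 1915 and 2018 CPM in clone 2, 2084 and 1903 CPM in clone 1, against 1303 and 1188 CPM in WT. Its replicates were close, and it rose by 0.59 ± 0.13 (adjusted p = 0.00326). Prdx4, the peroxiredoxin of the ER that supplies oxidising power, had 223.0 and 237.0 CPM in clone 2, 208.6 and 185.8 CPM in clone 1, against 365.1 and 334.2 CPM in WT, and fell by 0.79 (SE 0.11, adjusted p = 0.000106). Txndc5, another isomerase, fell by 0.44 (SE 0.11, adjusted p = 0.00664). The membrane-bound Tmx3 (0.84 ± 0.19, adjusted p = 0.00369) and Tmx4 (0.70 ± 0.23, adjusted p = 0.0282) rose, but not with GC and length offsets (0.27, adjusted p = 0.113 for Tmx3 and 0.36, adjusted p = 0.0989 for Tmx4). Tmx4 was also not called at 0.34 without WT replicate 1, at 0.58 without clone 1 replicate 2 or at 0.63 without clone 2 replicate 1, or with both clones as 1 group (0.72).

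In N-glycan processing and the calnexin cycle, which feeds clients to Canx and Calr, 2 of 10 tested rose and 2 fell, with a median of 0.11. Under GC and length offsets 4 were called higher and 1 lower. Edem3, a mannosidase of glycoprotein degradation, rose by 0.87 ± 0.20 (adjusted p = 0.00386) and Lman1, a cargo receptor for glycoproteins leaving the ER, by 0.77 ± 0.17 (adjusted p = 0.00307). Edem1, which routes misfolded glycoproteins to degradation, fell by 0.42 (SE 0.11, adjusted p = 0.0109), except without WT replicate 2 (−0.26, adjusted p = 0.167) or with both clones as 1 group (−0.40, adjusted p = 0.0885). Prkcsh, a subunit of glucosidase II, fell by 0.38 (SE 0.11, adjusted p = 0.0125), a call that ended with GC and length offsets (−0.15, adjusted p = 0.24) and without either clone 1 replicate 2 or clone 2 replicate 1 (−0.36 and −0.38, adjusted p = 0.0566 and 0.0625).

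Of 9 prolyl isomerases and collagen chaperones, 4 rose and 2 fell, with a median of 0.14. The same counts were found under GC and length offsets. Fkbp11 had 64.6 and 68.3 CPM in clone 2, 98.3 and 101.2 CPM in clone 1, against 48.0 and 42.5 CPM in WT, and rose by 0.78 ± 0.12 (adjusted p = 0.000254). The 3 groups were separate, clone 1 being highest. Fkbp14 rose by 0.65 ± 0.17 (adjusted p = 0.00939), though not in thinned libraries (0.56, adjusted p = 0.0664). Fkbp7 rose by 0.64 ± 0.19 (adjusted p = 0.0183), a call lost with GC and length offsets (0.37), with both clones as 1 group (0.64), and without WT replicate 2 (0.42) or clone 2 replicate 1 (0.55). Ppib (cyclophilin B), which assists collagen folding, fell by 0.53 (SE 0.11, adjusted p = 0.00196) and Ppic (cyclophilin C) by 0.49 (SE 0.11, adjusted p = 0.00416). Serpinh1, the collagen chaperone HSP47, rose by 0.34 (adjusted p = 0.0465) and was named after its value was seen.

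In ER-associated degradation, 3 of 12 tested rose and 1 fell, with a median of 0.14. Under GC and length offsets 4 were called higher and 2 lower. Ubxn4, an ER membrane protein that recruits the p97 ATPase, rose by 1.02 ± 0.18 (adjusted p = 0.000719), whereas Herpud1, a scaffold of the degradation complex, fell by 0.56 (SE 0.11, adjusted p = 0.00153). Herpud1 had 101.5 and 105.2 CPM in clone 2, 93.2 and 86.5 CPM in clone 1, against 123.2 and 145.0 CPM in WT. Selenos, a selenoprotein that links the p97 ATPase to the membrane, rose by 0.47 ± 0.13 (adjusted p = 0.0139), though not without WT replicate 1 (0.39, adjusted p = 0.0614). Erlec1, a lectin of this pathway, rose by 0.68 ± 0.23 (adjusted p = 0.0311) but not with GC and length offsets (0.27), in thinned libraries (0.71), nor at 0.42 without WT replicate 1, at 0.60 without clone 1 replicate 2 or at 0.63 without clone 2 replicate 2. Of 14 genes of translocation and other stress-induced ER proteins, 2 rose and 1 fell, with a median of −0.08. With GC and length offsets 0 of the 14 were called higher and 2 lower. Ssr3 (0.56 ± 0.13, adjusted p = 0.00366) and Spcs3 (0.51 ± 0.16, adjusted p = 0.0269), subunits of the translocon-associated complex and of signal peptidase, rose, but not with GC and length offsets (0.17 for Ssr3 and 0.08 for Spcs3). The call of Spcs3 also ended at 0.33 without WT replicate 1, at 0.37 without clone 1 replicate 2 and at 0.44 without clone 2 replicate 1. Sec61b, a channel subunit, fell by 0.62 (SE 0.16, adjusted p = 0.00804), except without WT replicate 1 (−0.31, adjusted p = 0.111).

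Of the ATF4 and CHOP branch, 7 of 7 tested genes fell and 0 rose (0 also at an unadjusted p below 0.05 and by DESeq2), with a median of −1.03. With GC and length offsets 6 of them were called lower, with a median of −0.79. By clone, 7 were called lower in clone 2 and 6 in clone 1, without offsets. Trib3, a pseudokinase that CHOP induces, had 30.1 and 36.1 CPM in clone 2, 23.8 and 21.4 CPM in clone 1, against 70.0 and 108.3 CPM in WT, and had the largest fall of the list, 1.80 on the log2 scale (SE 0.15, adjusted p = 1.03e-06). Ddit3, the gene of CHOP, had 20.8 and 21.5 CPM in clone 2, 15.2 and 16.5 CPM in clone 1, against 39.5 and 56.2 CPM in WT. Chac1, a glutathione-degrading target of this branch, had 58.2 and 62.2 CPM in clone 2, 37.9 and 32.4 CPM in clone 1, against 79.3 and 113.6 CPM in WT. Chaperones outside the ER gave 2 rises and 2 falls among 15 tested, with a median of −0.03. With GC and length offsets 3 of the 15 were called higher and 4 lower. Hsp90aa1, the inducible cytosolic HSP90, had 92.2 and 80.5 CPM in clone 2, 85.0 and 131.2 CPM in clone 1, against 28.7 and 37.6 CPM in WT, and rose by 1.43 ± 0.18 (adjusted p = 3.52e-05). Hspa4, a cytosolic exchange factor, rose by 0.97 ± 0.17 (adjusted p = 0.000788). Trap1, the mitochondrial HSP90, fell by 0.64 (SE 0.11, adjusted p = 0.000426) and Hsp90ab1, the constitutive cytosolic HSP90, by 0.43 (SE 0.13, adjusted p = 0.02). The call of Hsp90ab1 ended without WT replicate 2 (−0.31, adjusted p = 0.115) and without each single knockout library other than clone 1 replicate 1 (−0.46 to −0.42, adjusted p = 0.0531 to 0.0866).

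**Figure D5:**
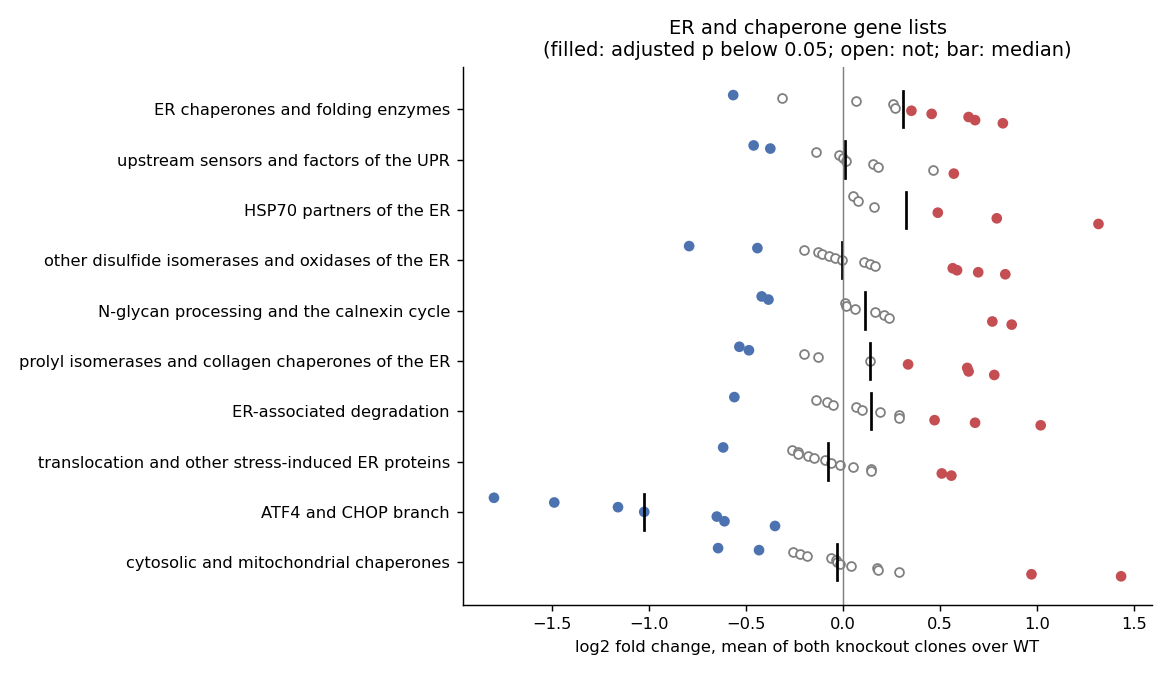
Log2 fold change of the mean of both clones over WT for each tested gene of 10 lists, with the list median as a bar; red and blue points passed an adjusted p below 0.05. The ER chaperones and folding enzymes have a median of 0.31, the HSP70 partners 0.32 and the ATF4 and CHOP branch −1.03, while the medians of the other lists lie between −0.08 and 0.14. With GC and length offsets, not drawn, medians were 0.32 for the ER chaperones, 0.22 for the HSP70 partners and 0.37 for the prolyl isomerases. They were 0.21 for N-glycan processing and −0.79 for the ATF4 and CHOP branch, with the other lists between −0.07 and 0.17.

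The genes whose level over the 6 libraries was most like that of Hspa5 were sought among 5189 protein-coding genes whose mean log2 CPM was 5 or more, by the root mean square difference of centred log2 CPM. They were Golph3 (0.0131), Dido1 (0.0277), Sept11 (0.0458), Eif1a (0.0482) and Utp3 (0.0485). Golph3 had 111.5 and 90.0 CPM in clone 2, 94.1 and 124.8 CPM in clone 1, against 50.9 and 75.1 CPM in WT. On the same measure the nearest of the other 9 chaperone genes was Canx (0.0684) and the farthest was Pdia4 (0.655). Log2 fold changes in the knockout mean were 0.63 for Golph3, 0.65 for Dido1, 0.63 for Sept11, 0.65 for Eif1a and 0.64 for Utp3. Values near that of Hspa5 follow from choosing genes by likeness over these same libraries, so they are no separate result. With GC and length offsets Golph3 (0.31, adjusted p = 0.0683) and Eif1a (0.24, adjusted p = 0.134) were not called. The offsets did not change the test outcome of Dido1, Sept11 or Utp3. Why these profiles are alike was not tested.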

How the data were processed

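Reads of the 6 libraries were viewed with FastQC and aligned with STAR 2.6.0c to GRCm38, per the submitters' processing notes. The deposited files hold the authors' raw read counts per Ensembl gene for both strands and unstranded. Their annotation release is not named in the sources used here. Reverse-strand counts were used, since reads on the other strand were 4.68% to 6.10% of it. Rows that name no gene (46.6% to 50.5% of reads) stayed out of totals, multimapping reads among them, so genes with close copies are measured by their unique parts. A floor of 3 counts was 0.152 to 0.775 CPM and covers counting error only. Symbols, positions and GC content came from GENCODE M21, which matched 54079 of 54146 identifiers.

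edgeR 4.0.16 (R 4.3.3) fitted 1 coefficient per group in a quasi-likelihood model after filterByExpr (minimum count 10) and TMM scaling (factors 0.951 to 1.03), leaving 3 residual degrees of freedom. The quasi-likelihood test pools spread over genes, so intervals and p-values rest on more degrees of freedom than these 3. P-values were adjusted by Benjamini-Hochberg over all 13120 genes. CPM values are not TMM-scaled and fold changes are. Replicates differed beyond sampling noise (chi-square per degree of freedom 21.6 in clone 2, 19.2 in clone 1 and 12.7 in WT). The alternatives were DESeq2 1.42.0, other scalings, no filter, unstranded counts, GC and length offsets (mgcv 1.9.3), a replicate block, thinning to 3873249 counts, both clones as 1 group, and leaving out each library. Steps were tested on simulated data.

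The 10 genes and the 9 other lists were chosen with earlier results of these data known. Named are Mki67, the 10 genes, every tested upstream sensor or factor, up to 3 called genes in each direction of each other list by size of change, and the 5 genes most like Hspa5. Ero1a and Ero1b are under older symbols in the annotation. The listed genes Dnajc3, Uggt2, Derl3 and Hspb1 had no count in any library and were left out of the test. Whether they are silent in these cells or missed in counting was not tested.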

Additional observations from a re-analysis of the deposited data

Results flagged for a closer look

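The clones differed from each other in 2 of the named genes outside the 10 chaperone genes, by edgeR's quasi-likelihood test of clone 2 against clone 1. Of all genes tested, 3.54% were called in this comparison, 1.18% higher in clone 2 and 2.36% lower. The 2 calls are therefore not a result about the named genes as a set. Fkbp11, a prolyl isomerase of the ER, had 64.6 and 68.3 CPM in clone 2, against 98.3 and 101.2 CPM in clone 1, a log2 difference of −0.59 (adjusted p = 0.0163). Chac1, of the ATF4 and CHOP branch, had 58.2 and 62.2 CPM in clone 2, against 37.9 and 32.4 CPM in clone 1, a log2 difference of 0.77 (adjusted p = 0.0142). In both genes both clones lay on the same side of WT.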

How the results depend on the processing

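Of the 10 genes, Hspa5, Hsp90b1, Canx and Pdia4 kept their direction and their call in the knockout mean under each of the 16 alternatives. Without any 1 library, the mean had 3 to 4 of the 10 genes higher, against 5 with all 6 libraries, and 1 to 2 lower. It had 3 higher without clone 1 replicate 2 and 3 without clone 2 replicate 1. Clone 1 had 1 to 5 higher and 1 to 2 lower, and clone 2 had 1 to 4 higher and 0 to 1 lower. Between clones 0 to 1 were higher and 0 to 1 lower. Genes called overall then numbered 2205 (without clone 1 replicate 2) to 4348 in clone 1, 1668 (without clone 2 replicate 1) to 4010 in clone 2 and 156 (without clone 2 replicate 2) to 1207 (without WT replicate 2) between clones. Where an arm is left with 1 library, it is assumed to vary like the other groups. GC and length offsets left 2 of the 10 genes higher in clone 2 and put 1 higher between clones, with 824 genes called there. Thinned libraries gave 2 lower in the mean and 2 in clone 2, and 212 genes between clones. With no filter on low counts, 0 were lower in clone 2 and 1 between clones, with 813 genes called, and the median of all genes in the mean moved to 0.15. Library totals left 0 lower in clone 2. The cause was not tested.

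The labels do not say whether replicate numbers pair the libraries. Deviations of same-numbered libraries correlated at −0.103 between clone 2 and clone 1, −0.0761 between clone 2 and WT and 0.237 between clone 1 and WT. These correlations cannot settle whether same-numbered libraries share a batch. A replicate block gave 4874 genes called in the mean, against 4561 without it, and 635 between clones, against 465, and left the counts of the 10 genes as they were. Of the named genes it changed 1 call in the mean, that of Mbtps2 (0.52, adjusted p = 0.0435). The block with GC and length offsets gave 2 of the 10 higher in clone 2, 1 higher between clones and 791 genes called there. Depth limits Dnajb9 most, with 33 counts in WT replicate 1. At 2 libraries a group, misses do not show equal levels.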
